A study of Mus musculus with 20 samples.

Results

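The cytosolic nucleic acid sensors described here are 10 mouse genes, Rigi, Ifih1, Dhx58, Mavs, Cgas, Sting1, Zbp1, Eif2ak2, Adar and Trex1, chosen by name from the 78409 gene entries of the expression table, of which 34373 had a count in any library. Their RNA was measured in 20 libraries of bone marrow-derived macrophages (BMDMs), 4 in each of 5 treatment groups. The macrophages were wild type in every group and were grown from female C57BL/6J mice with L929 fibroblast-conditioned medium, seeded at 200000 cells per well and treated on day 7 of culture in Opti-MEM without serum. Control cells received PBS. The other groups received fractions of bronchoalveolar lavage fluid (BALF) from mice sensitised to and challenged with ovalbumin (OVA), which develop allergic airway inflammation. The mice that gave the fluid were either RNY1+/+ or RNY1-/-, the latter carrying a CRISPR deletion of the gene for the small noncoding Y RNA RNY1 in all their cells, so genotype here is that of the fluid donor and never of the macrophage. Size exclusion chromatography split the fluid into an early, extracellular vesicle-enriched fraction (EVFx) and a later, protein-enriched fraction (ProteinFx), which were kept at 4 °C for 5 days. EVFx was given at 35000000 particles per µL and ProteinFx at 0.75 µg protein per µL, so the doses were equal between genotypes and not matched between fractions. All library names share 1 prefix, and the labels read here do not say that it marks a batch. The sources used here give no statement on whether a group's 4 libraries stem from different mice, wells or pools of fluid, so p-values cover only the spread among these libraries, which may be technical.

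Cells carry receptors for nucleic acids that turn up in the wrong place. RIG-I (Rigi) and MDA5 (Ifih1) are helicases that bind double-stranded RNA in the cytosol, LGP2 (Dhx58) is their regulator, and MAVS on mitochondria relays their signal to the kinases that switch on type I interferon. cGAS (Cgas) makes the messenger cGAMP on DNA, STING (Sting1) answers it, and the exonuclease TREX1 removes the DNA. ZBP1 binds Z-form nucleic acids and can start necroptosis, PKR (Eif2ak2) halts translation when it meets double-stranded RNA, and ADAR1 (Adar) edits such RNA so that it is less well sensed. Several of these genes are themselves raised by interferon, through interferon-stimulated response elements (ISREs) in their promoters.

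The start-site regions of the sensor genes were searched for 2 short motif cores, because the members that rose are known interferon targets and such cores mark promoters of that kind. Promoters running from 250 bases before to 50 bases after the start site were at hand from RefSeq (GRCm38.p6) for 7 of the 10 members, which have 10 promoters together, and none for Dhx58, Sting1 and Zbp1. The ISRE core GAAANNGAAA, searched on both strands, was present in 3 of the 10 promoters of these genes, those of Rigi, Ifih1 and Eif2ak2, beside 3.44% of all 32851 promoters. The GAS core TTCNNNGAA, a palindrome in its fixed letters and searched on both strands, was present in 2 of the 10, those of Eif2ak2 and 1 of the 3 promoters of Adar, beside 8.3% of all promoters. Each window of 30 bases is shown 5′ to 3′ on the gene's own strand with the matching bases in capitals.
Rigi ISRE core, read on the opposite strand, chr4:40239804-40239833, minus strand: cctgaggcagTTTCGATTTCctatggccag
Ifih1 ISRE core, chr2:62646206-62646235, minus strand: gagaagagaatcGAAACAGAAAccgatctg
Eif2ak2 ISRE core, chr17:78882535-78882564, minus strand: agtccgccggGAAAACGAAAcagaagagaa
Eif2ak2 GAS core, chr17:78882731-78882760, minus strand: ctgcagagctTTCCCAGAAtggaagccagg
Adar GAS core, chr3:89730730-89730759, plus strand: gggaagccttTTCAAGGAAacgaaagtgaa
Counted from the start site, the ISRE cores lay at positions 3 to 12 in Rigi, 33 to 42 in Ifih1 and 19 to 28 in Eif2ak2, and the GAS cores at -178 to -170 in Eif2ak2 and 23 to 31 in Adar. These matches describe the letters of the windows and are not binding sites shown by these data. The genes were searched because they rose and are known interferon targets, so the shares are no separate test of interferon control.

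Library depth after removal of duplicate molecules ran from 2510005 to 8277366 counts, with a median of 5456425. The macrophage label held in every group, with all 8 macrophage markers detected and a summed level between 8567 and 13490 CPM (counts scaled to a total of 1000000 per library). Markers of T cells, B cells, eosinophils, dendritic cells and airway epithelium summed to at most 15.9 CPM in any library. The neutrophil list summed to between 144 and 356 CPM, mostly through S100a8 and S100a9, with Ly6g, Mpo and Elane at or near 0. Its other genes, Ngp, Camp and Ltf, were detected and highest in PBS, at means of 9.85, 4.36 and 4.25 CPM. The fibroblast list ran from 10.6 to 51.2 CPM. Rny1 itself was at or under the floor of 3 counts per library, with 4.5 summed counts in each of its gene entries after RNY1+/+ EVFx, its highest group. A short RNA without a poly(A) tail checks no label in a poly(A)-primed library. In bulk RNA, fewer cells of a type and less RNA per cell cannot be told apart.

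Some libraries stood apart. Within the RNY1-/- ProteinFx group, replicates 1 and 2 did not overlap replicates 3 and 4 for Rigi, Dhx58, Sting1, Zbp1, Eif2ak2 and Trex1, all higher in the first pair, or for Ifih1, which was lower in it. The share of all genes split in this way was not counted. At 5293171 and 7149366 counts against 2510005 and 3855450, the first pair was also deeper, and the part of depth in the split was not tested. Replicate 3 was the shallowest library of each EVFx group, and it was the lowest of its group for 6 members after RNY1+/+ EVFx and for 8 after RNY1-/- EVFx. Over all genes with enough counts, PBS replicate 3 differed from PBS replicates 1, 2 and 4 by squared differences of 31.6, 34.8 and 16.8 times those of counting error. The same measure was 13.3 to 15.7 between the pairs of RNY1-/- ProteinFx and 3.5 and 2.57 within them, so that split was not confined to the sensors. PBS replicate 3 was the lowest PBS library for 6 members and the highest for the other 4. Fits on each RNY1-/- ProteinFx pair, a split chosen after the data were seen, are given for some of the results.

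**Figure D1:**
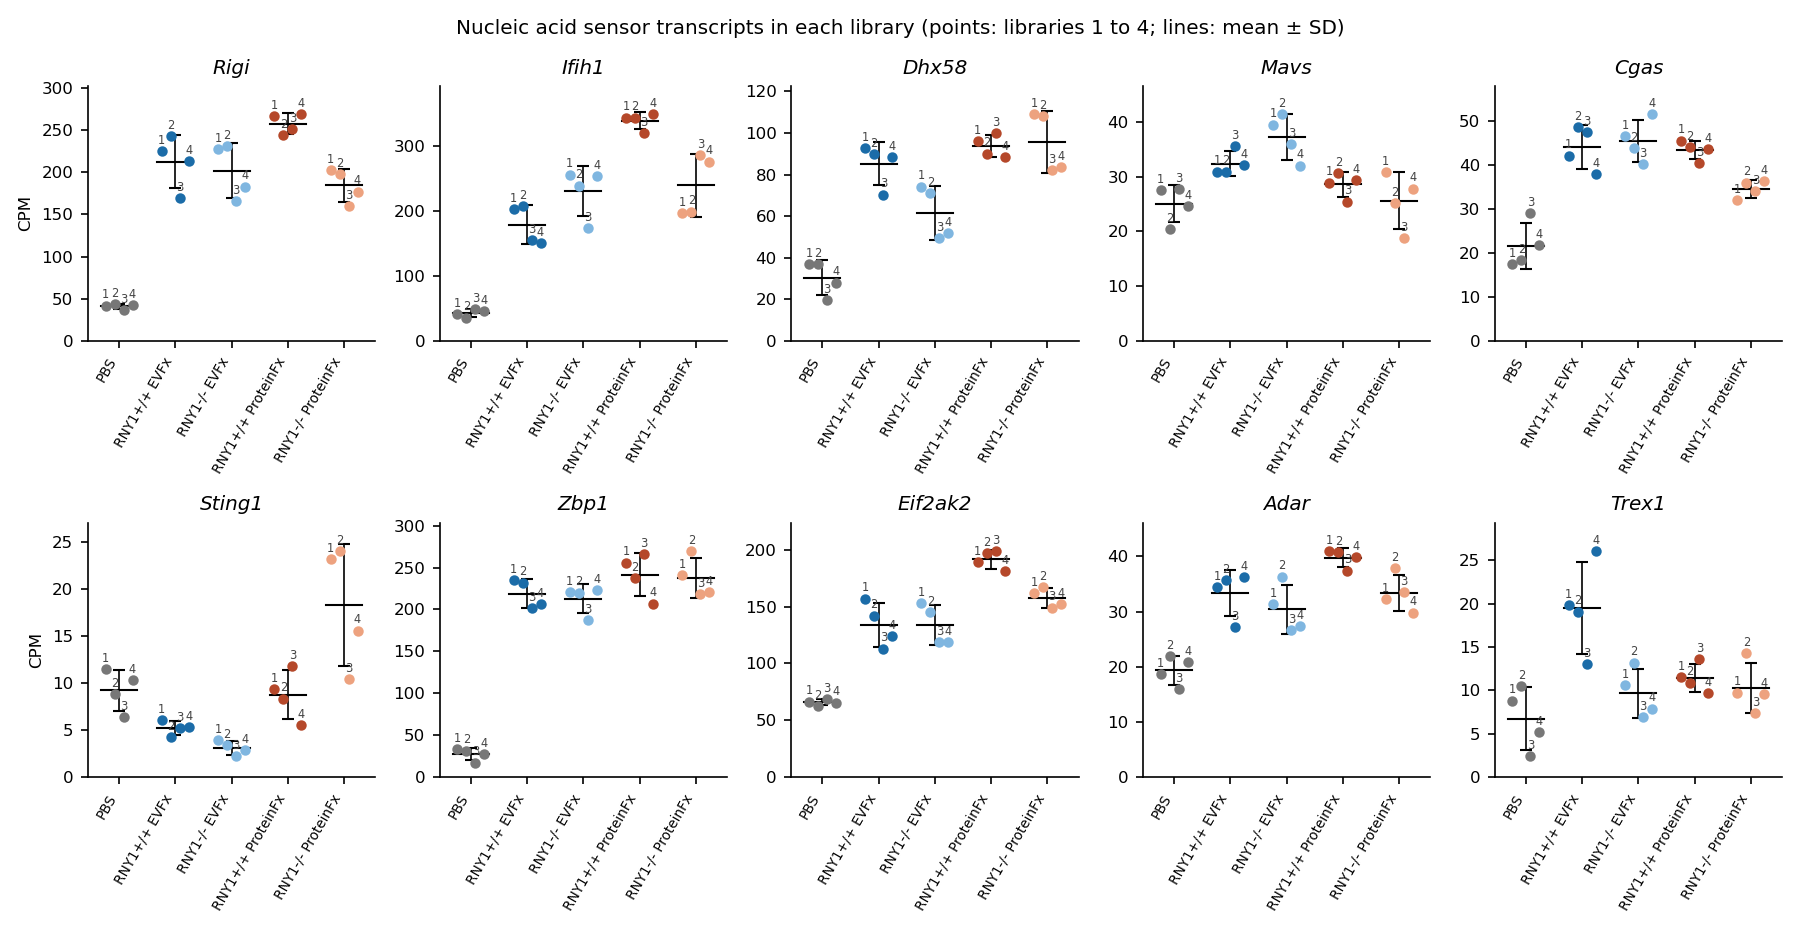
CPM of each sensor gene in every library, by treatment group, with 1 panel per gene, points for the 4 libraries and a line with bars for the mean ± SD. Rigi, Ifih1, Dhx58, Cgas, Zbp1, Eif2ak2 and Adar lay above PBS in all 16 treated libraries, whereas Sting1 lay lowest after RNY1-/- EVFx and highest after RNY1-/- ProteinFx. The share of all genes that lay above PBS in every treated library was not counted.

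The first comparison set each airway fluid fraction against PBS. Most of the sensors rose after every fraction, led by Zbp1, Ifih1 and Rigi, while Mavs was called after none of them and Sting1 was called lower after RNY1-/- EVFx and higher after RNY1-/- ProteinFx. A gene was called when the edgeR quasi-likelihood test gave a Benjamini-Hochberg adjusted p under 0.05 over all genes tested and the log2 fold change exceeded 1 in size, and all 10 members entered every test. After RNY1+/+ EVFx 7 of the 10 were called higher and none lower, beside 8.24% of all genes called higher. With RNY1-/- EVFx 6 were called higher, beside 9.01% of all genes, and 1, Sting1, was called lower, beside 13.5%. The RNY1+/+ ProteinFx group had 7 called higher beside 8.96% of all genes, and RNY1-/- ProteinFx had 6 beside 6.31%. The median log2 fold change of the 10 members was 1.44, 1.26, 1.46 and 1.20 in the same order, and that of all genes was -0.03 each time. Scaling to total counts moved the median of all genes to -0.21, -0.27, -0.20 and -0.10 and left the number of members called in each direction as it was.

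**Figure D2:**
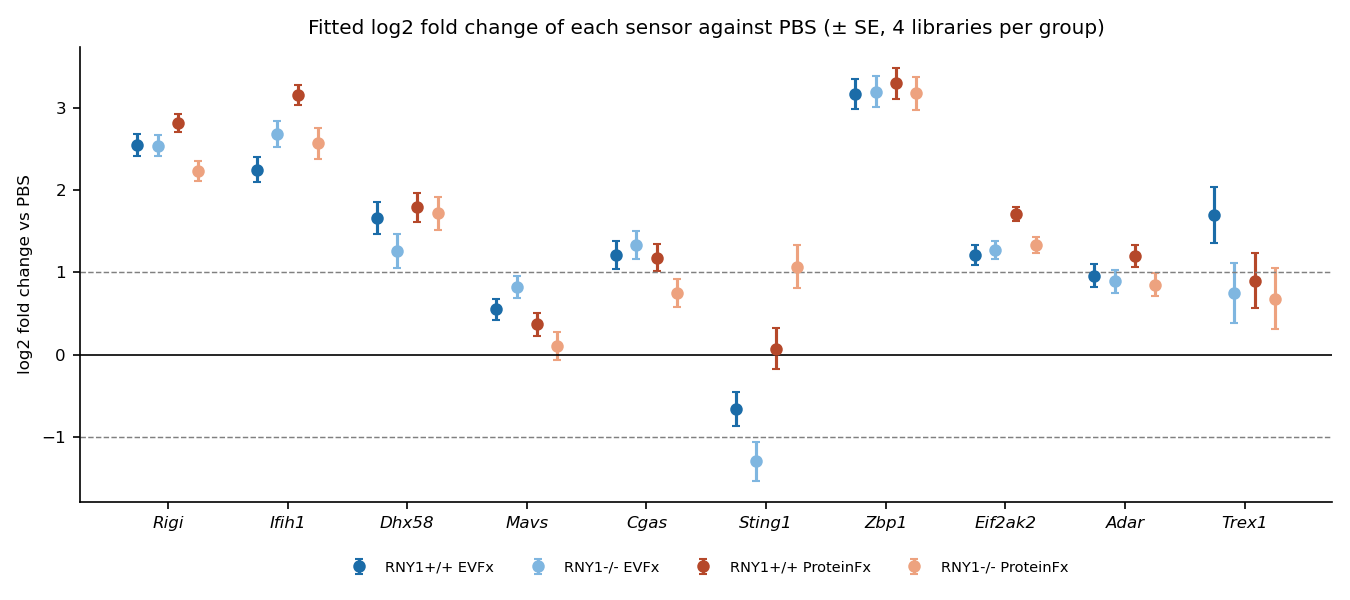
Log2 fold change of each sensor gene after each fraction against PBS, with bars of 1 SE, from edgeR fits on 8 libraries each. Zbp1 stands highest in all 4 comparisons, between 3.17 and 3.30, and Sting1 runs from -1.30 to 1.07.

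Rigi, the sensor of short and triphosphate-ended RNA, was read at 41.6, 43.3, 36.1 and 42.5 CPM in the 4 PBS libraries. After EVFx it stood at 225, 243, 169 and 213 CPM with RNY1+/+ fluid, and at 228, 231, 166 and 183 CPM with RNY1-/- fluid. After ProteinFx the libraries read 267, 244, 251 and 269 CPM with RNY1+/+ fluid, and 203, 198, 160 and 177 CPM with RNY1-/- fluid. Every treated library was above every PBS library, and the RNY1+/+ ProteinFx libraries, at 258 ± 12.1 CPM (mean ± SD, n = 4), were above all others. That mean was 6.3 times the PBS mean of 40.9 ± 3.23. The log2 fold changes over PBS were 2.55 (SE 0.13) and 2.54 (SE 0.13) for the EVFx of RNY1+/+ and RNY1-/- mice, with adjusted p of 8.0e-08 and 9.2e-08 in the edgeR test. For ProteinFx they were 2.82 (SE 0.11) and 2.23 (SE 0.12), with adjusted p of 3.7e-09 and 3.3e-07.

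Ifih1 encodes MDA5, which binds long double-stranded RNA, and its PBS libraries lay at 40.8, 35.5, 48.3 and 45.9 CPM. RNY1+/+ EVFx gave 203, 207, 155 and 150 CPM and RNY1-/- EVFx gave 256, 239, 174 and 254 CPM. RNY1+/+ ProteinFx gave 344, 344, 320 and 349 CPM and RNY1-/- ProteinFx gave 197, 199, 286 and 276 CPM. No treated library fell within the PBS range, and the RNY1+/+ ProteinFx group stood clear above the others at 339 ± 13.1 CPM, or 7.96 times PBS. The other means, 240, 231 and 179 CPM for RNY1-/- ProteinFx, RNY1-/- EVFx and RNY1+/+ EVFx, had neighbours whose ranges overlapped. Fitted log2 fold changes were 2.25 (SE 0.15) and 2.68 (SE 0.16) for RNY1+/+ and RNY1-/- EVFx, and 3.16 (SE 0.12) and 2.57 (SE 0.19) for RNY1+/+ and RNY1-/- ProteinFx, all called.

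Dhx58, the helicase without a signalling domain of its own, rose less than its relatives. Its libraries read 36.9, 37, 19.4 and 27.9 CPM in PBS, 92.8, 89.9, 70.3 and 88.2 CPM after RNY1+/+ EVFx, and 74.2, 71, 49.3 and 51.7 CPM after RNY1-/- EVFx. After ProteinFx they read 96.1, 90, 100 and 88.5 CPM for RNY1+/+ and 109, 108, 82.1 and 83.5 CPM for RNY1-/-. All treated libraries were above the PBS range, and each treated group overlapped its neighbour in the order of means. The log2 fold changes were 1.66 (SE 0.19), 1.26 (SE 0.21), 1.79 (SE 0.18) and 1.72 (SE 0.20), in the order RNY1+/+ EVFx, RNY1-/- EVFx, RNY1+/+ ProteinFx and RNY1-/- ProteinFx, with adjusted p between 9.0e-06 and 3.9e-04 in edgeR.

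Mavs, the adaptor that these helicases share, was above PBS after EVFx. Its PBS libraries ran from 20.4 to 27.7 CPM, RNY1+/+ EVFx from 30.9 to 35.6, RNY1-/- EVFx from 32 to 41.4, RNY1+/+ ProteinFx from 25.4 to 30.7 and RNY1-/- ProteinFx from 18.7 to 30.8. Both EVFx groups were above every PBS library and both ProteinFx groups overlapped PBS. The log2 fold change was 0.55 (SE 0.13, adjusted p = 0.00493) after RNY1+/+ EVFx and 0.82 (SE 0.13, adjusted p = 3.4e-04) after RNY1-/- EVFx, past the adjusted p and short of the fold limit. With length and GC trends removed the RNY1-/- EVFx value was 1.07 (adjusted p = 1.1e-04), which was called. With the trends kept, Mavs was at 0.37 (SE 0.14, adjusted p = 0.0403) after RNY1+/+ ProteinFx. That adjusted p lay over 0.05 without PBS replicate 2 or 4 or without RNY1+/+ ProteinFx replicate 1, 2 or 4 (up to 0.128). It also lay over 0.05 under total count scaling and under scaling to Rab14, Arpc2 and Cltc. After RNY1-/- ProteinFx Mavs was at 0.11 (SE 0.17, adjusted p = 0.609).

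Cgas, the DNA sensor, rose by about 1 log2 unit. The PBS libraries were at 17.4, 18.4, 29 and 21.7 CPM, against 42.2, 48.7, 47.5 and 37.9 CPM after RNY1+/+ EVFx and 46.6, 43.9, 40.2 and 51.6 CPM after RNY1-/- EVFx. RNY1+/+ ProteinFx gave 45.6, 44.1, 40.5 and 43.7 CPM, and RNY1-/- ProteinFx gave 32, 36, 34.1 and 36.3 CPM. The first 3 of these treated groups overlapped one another, and the RNY1-/- ProteinFx libraries lay between them and PBS without touching either. Log2 fold changes were 1.21 (SE 0.17) and 1.33 (SE 0.17) for RNY1+/+ and RNY1-/- EVFx and 1.18 (SE 0.16) for RNY1+/+ ProteinFx, all called, and 0.75 (SE 0.17, adjusted p = 0.00735) for RNY1-/- ProteinFx, under the fold limit. On the RNY1-/- ProteinFx pairs that last value was 0.69 (adjusted p = 0.0659) for replicates 1 and 2 and 0.85 (adjusted p = 0.0188) for replicates 3 and 4. With trends in transcript length and GC content removed from each library, the RNY1+/+ ProteinFx value was 0.92 and no longer called.

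Sting1, the receptor for the cGAMP that cGAS makes, was the member whose direction differed among the fractions. It was read at 11.5, 8.81, 6.4 and 10.3 CPM in PBS, at 6.08, 4.25, 5.21 and 5.32 CPM after RNY1+/+ EVFx, and at 3.94, 3.43, 2.22 and 2.86 CPM after RNY1-/- EVFx. After ProteinFx it was read at 9.38, 8.36, 11.8 and 5.55 CPM with RNY1+/+ fluid and at 23.2, 24.1, 10.4 and 15.6 CPM with RNY1-/- fluid. The RNY1-/- EVFx libraries were the lowest of all and overlapped no other group, and in RNY1-/- ProteinFx replicates 1 and 2 were above everything else while replicate 3 lay inside the PBS range. These levels rest on 9 to 172 counts per library, the fewest of the 10 genes. Sting1 fell by 1.30 on the log2 scale after RNY1-/- EVFx (SE 0.24, adjusted p = 9.3e-04). After RNY1+/+ EVFx the value was -0.66 (SE 0.21, adjusted p = 0.0246), and the adjusted p stayed under 0.05 in 3 of the 8 fits with 1 library left out (without PBS replicate 2 or 3 or RNY1+/+ EVFx replicate 1). After RNY1+/+ ProteinFx it was 0.07 (SE 0.25, adjusted p = 0.826), which total count scaling turned to -0.10.

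After RNY1-/- ProteinFx Sting1 rose by a log2 fold change of 1.07 (SE 0.26, adjusted p = 0.0111), to 18.3 ± 6.53 CPM from 9.25 ± 2.19 CPM in PBS. That call lay close to the fold limit. It was lost without PBS replicate 3 (0.95), without RNY1-/- ProteinFx replicate 1 (0.96) and without RNY1-/- ProteinFx replicate 2 (0.93), and with replicates 3 and 4 as the only treated libraries the value was 0.63 (adjusted p = 0.115).

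Trex1, the exonuclease that keeps cytosolic DNA low, was called after RNY1+/+ EVFx only among the 4 fractions, and the difference between fractions was tested separately. Its libraries read 8.81, 10.5, 2.4 and 5.16 CPM in PBS, 19.8, 19.1, 13 and 26.1 CPM after RNY1+/+ EVFx, and 10.6, 13.2, 6.9 and 7.91 CPM after RNY1-/- EVFx. RNY1+/+ ProteinFx gave 11.5, 10.9, 13.6 and 9.72 CPM and RNY1-/- ProteinFx gave 9.73, 14.3, 7.37 and 9.6 CPM. Only the RNY1+/+ EVFx libraries stood clear of PBS, whose replicate 3 was far under the rest. The log2 fold change there was 1.70 (SE 0.34, adjusted p = 0.00206). It was 0.75 (SE 0.36, adjusted p = 0.0932), 0.90 (SE 0.33, adjusted p = 0.0384) and 0.68 (SE 0.37, adjusted p = 0.172) for RNY1-/- EVFx, RNY1+/+ ProteinFx and RNY1-/- ProteinFx.

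Those 3 Trex1 values moved with the processing in both directions. The RNY1+/+ ProteinFx value lost its adjusted p under total count scaling (0.73, adjusted p = 0.084), under scaling to Rab14, Arpc2 and Cltc (0.83, adjusted p = 0.0619), without PBS replicate 4 (0.78, adjusted p = 0.108) and without any 1 of the RNY1+/+ ProteinFx libraries (adjusted p from 0.063 to 0.0886). Without PBS replicate 2, the highest of its group, the RNY1-/- EVFx value was 1.06 (adjusted p = 0.0346) and the RNY1+/+ ProteinFx value 1.21 (adjusted p = 0.0144), and without PBS replicate 1 the latter was 1.04 (adjusted p = 0.0389), all called. With length and GC trends removed Trex1 was called in all 3, at 1.43, 1.60 and 1.33. The RNY1-/- EVFx value passed the adjusted p but not the fold limit with replicate numbers as a block (0.78, adjusted p = 0.00882) and with no filter (0.74, adjusted p = 0.00669). Trex1 also shares exon sequence on the same strand with Atrip in GENCODE M21 (GRCm38), and 7 libraries held fractional Trex1 counts, so its counts cannot be fully parted from those of Atrip.

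Zbp1, the Z-nucleic acid sensor, had the largest ratio to PBS of the 10 genes in each of the 4 groups. Its PBS libraries were at 33.4, 31.5, 17.2 and 27.2 CPM, and EVFx brought it to 235, 232, 202 and 206 CPM with RNY1+/+ fluid and 221, 220, 187 and 223 CPM with RNY1-/- fluid. ProteinFx brought it to 256, 237, 266 and 207 CPM with RNY1+/+ fluid and 241, 270, 218 and 221 CPM with RNY1-/- fluid. The treated groups overlapped their neighbours throughout and none came near PBS. Their means were 8, 7.79, 8.83 and 8.7 times the PBS mean of 27.3 ± 7.26 CPM, for RNY1+/+ EVFx, RNY1-/- EVFx, RNY1+/+ ProteinFx and RNY1-/- ProteinFx. In log2 terms the fits gave 3.17 (SE 0.18), 3.20 (SE 0.19), 3.30 (SE 0.19) and 3.18 (SE 0.20), with edgeR adjusted p from 7.1e-08 to 1.1e-06.

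Eif2ak2, which encodes the kinase PKR, started from 66.4, 62.3, 68.8 and 65.5 CPM in PBS. It was at 157, 142, 113 and 124 CPM after RNY1+/+ EVFx and at 153, 145, 119 and 119 CPM after RNY1-/- EVFx. After RNY1+/+ ProteinFx it was at 189, 197, 199 and 181 CPM, and after RNY1-/- ProteinFx at 162, 167, 149 and 152 CPM. The RNY1+/+ ProteinFx libraries lay above all others, and the lowest treated library was well above the highest PBS library. Fitted log2 fold changes were 1.21 (SE 0.12), 1.27 (SE 0.11), 1.71 (SE 0.09) and 1.33 (SE 0.10), in the order RNY1+/+ EVFx, RNY1-/- EVFx, RNY1+/+ ProteinFx and RNY1-/- ProteinFx, all called. Removing length and GC trends took the RNY1-/- EVFx value to 0.92, under the fold limit. Reads of Eif2ak2 were in part shared with other loci, since 19 of the 20 libraries held fractional counts for it.

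Adar, the RNA-editing enzyme that blunts sensing of self RNA, ran from 16 to 21.9 CPM in PBS, 27.2 to 36.2 after RNY1+/+ EVFx, 26.6 to 36.3 after RNY1-/- EVFx, 37.4 to 41 after RNY1+/+ ProteinFx and 29.8 to 37.8 after RNY1-/- ProteinFx. All treated libraries were above PBS, near the fold limit of the call. The log2 fold change was 1.20 (SE 0.13, adjusted p = 1.7e-05) after RNY1+/+ ProteinFx, which was called. It was 0.96 (SE 0.14), 0.89 (SE 0.14) and 0.85 (SE 0.14) after RNY1+/+ EVFx, RNY1-/- EVFx and RNY1-/- ProteinFx, past the adjusted p alone. Leaving out PBS replicate 2, PBS replicate 4 or RNY1+/+ EVFx replicate 3 brought the RNY1+/+ EVFx value to 1.02, 1.01 and 1.04, and length and GC removal brought the other 2 to 1.15 and 1.09. Counts taken at the 3′ end do not tell the interferon-driven long ADAR1 from the constitutive short one.

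The next comparison asked whether fluid lacking RNY1 acted differently from RNY1+/+ fluid of the same fraction. In ProteinFx Rigi, Ifih1, Eif2ak2 and Cgas were lower and Sting1 was higher with RNY1-/- fluid by the adjusted p, whereas in EVFx Trex1, Sting1 and Dhx58 were lower and Ifih1 and Mavs higher. For EVFx 0 of 10 members were called by edgeR, beside 2.35% of all genes, and 0 by DESeq2. An unadjusted p under 0.05 was reached by 5, a limit at which the share of all genes was not counted. By the adjusted p alone 2 members were higher, beside 25.5% of all genes, and 3 were lower, beside 26.6%, both shares near that background. For ProteinFx 1 member was called, beside 1.82% of all genes, and by the adjusted p alone 1 was higher, beside 2.2%, and 4 were lower, beside 3.37%. Scaling to Rab14, Arpc2 and Cltc left 2 members past the adjusted p, Rigi and Sting1, and total counts or no filter left 3, Rigi, Ifih1 and Sting1. The median log2 difference of the members, RNY1-/- minus RNY1+/+, was 0.02 in EVFx and -0.29 in ProteinFx, with -0.00 and 0.02 over all genes.

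In ProteinFx, Rigi differed by -0.57 (SE 0.10, adjusted p = 0.00574), with the 4 RNY1-/- libraries (160 to 203 CPM) below the 4 RNY1+/+ libraries (244 to 269 CPM). Rigi kept an adjusted p of 0.0259 or less with any 1 library left out, and the difference was -0.50 against RNY1-/- replicates 1 and 2 alone and -0.65 against replicates 3 and 4 alone. Ifih1 differed by -0.58 (SE 0.15, adjusted p = 0.0358), again without overlap between the groups. That value was -0.91 with RNY1-/- replicates 1 and 2 alone and -0.31 (adjusted p = 0.0621) with replicates 3 and 4 alone, and its adjusted p rose to as much as 0.127 when 1 library was dropped, staying under 0.05 only without RNY1-/- ProteinFx replicate 3 or 4. It was 0.119 with scaling to Rab14, Arpc2 and Cltc.

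Eif2ak2 and Cgas also lay lower after RNY1-/- ProteinFx with no overlap of libraries, by -0.36 (SE 0.09, adjusted p = 0.0307) and -0.42 (SE 0.11, adjusted p = 0.0458) on the log2 scale. Both were just past the adjusted p and held there in only 1 of the 8 fits with a library left out, that without RNY1-/- ProteinFx replicate 3 (0.0433 for Eif2ak2 and 0.0463 for Cgas), with up to 0.092 and 0.151 in the others. Total count scaling took them to adjusted p of 0.0932 and 0.0934, and scaling to Rab14, Arpc2 and Cltc to 0.0921 and 0.111. Against RNY1-/- replicates 1 and 2 alone Eif2ak2 was at -0.35 (adjusted p = 0.0112) and Cgas at -0.49 (adjusted p = 0.0071), and against replicates 3 and 4 alone at -0.38 (adjusted p = 0.026) and -0.33 (adjusted p = 0.116). Adar differed by -0.34 (SE 0.11, adjusted p = 0.105), Mavs by -0.23 (SE 0.15, adjusted p = 0.433), Trex1 by -0.19 (SE 0.19, adjusted p = 0.667), Zbp1 by -0.11 (SE 0.11, adjusted p = 0.653) and Dhx58 by -0.05 (SE 0.11, adjusted p = 0.858), none past the threshold.

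Sting1 went the other way in ProteinFx, with a log2 difference of 1.04 (SE 0.25, adjusted p = 0.0281) and means of 18.3 ± 6.53 CPM for RNY1-/- and 8.78 ± 2.59 CPM for RNY1+/+. The 2 groups overlapped, since RNY1-/- replicate 3 at 10.4 CPM was under RNY1+/+ replicate 3 at 11.8 CPM. Against RNY1-/- replicates 3 and 4 alone the difference was 0.59 (adjusted p = 0.211). The call was also lost without RNY1+/+ ProteinFx replicate 1, 2 or 4 and without RNY1-/- ProteinFx replicate 1 or 2 (adjusted p from 0.0685 to 0.124).

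In EVFx the largest genotype difference was that of Trex1, at -0.94 (SE 0.21, adjusted p = 0.00274), with RNY1-/- libraries from 6.9 to 13.2 CPM and RNY1+/+ libraries from 13 to 26.1 CPM. It passed the fold limit without RNY1+/+ EVFx replicate 3 (-1.08) or RNY1-/- EVFx replicate 2 (-1.11). Sting1 differed by -0.63 (SE 0.20, adjusted p = 0.0215) and Dhx58 by -0.40 (SE 0.13, adjusted p = 0.019). On the higher side stood Ifih1, at 0.44 (SE 0.14, adjusted p = 0.0161), and Mavs, at 0.28 (SE 0.09, adjusted p = 0.0192). Of these 5, Mavs alone stayed past the adjusted p once length and GC trends were removed, at 0.63 (adjusted p = 3.5e-04), while Trex1 was then at -0.44 (adjusted p = 0.0547), Sting1 at -0.42 (0.117), Dhx58 at -0.04 (0.786) and Ifih1 at 0.15 (0.371). Dropping single libraries lost the adjusted p for Ifih1 in 3 of 8 fits (without RNY1+/+ EVFx replicate 3 or 4 or RNY1-/- EVFx replicate 4, up to 0.0668) and for Mavs in 4 (without replicate 1 or 2 of either group, up to 0.0688). It lost it for Sting1 in 2 (without RNY1+/+ EVFx replicate 1 or RNY1-/- EVFx replicate 4, up to 0.0593) and for Dhx58 in 1 (without RNY1-/- EVFx replicate 4, 0.0558). Rigi, Cgas, Zbp1, Eif2ak2 and Adar differed by between -0.07 and 0.13, with adjusted p from 0.316 to 0.984.

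**Figure D3:**
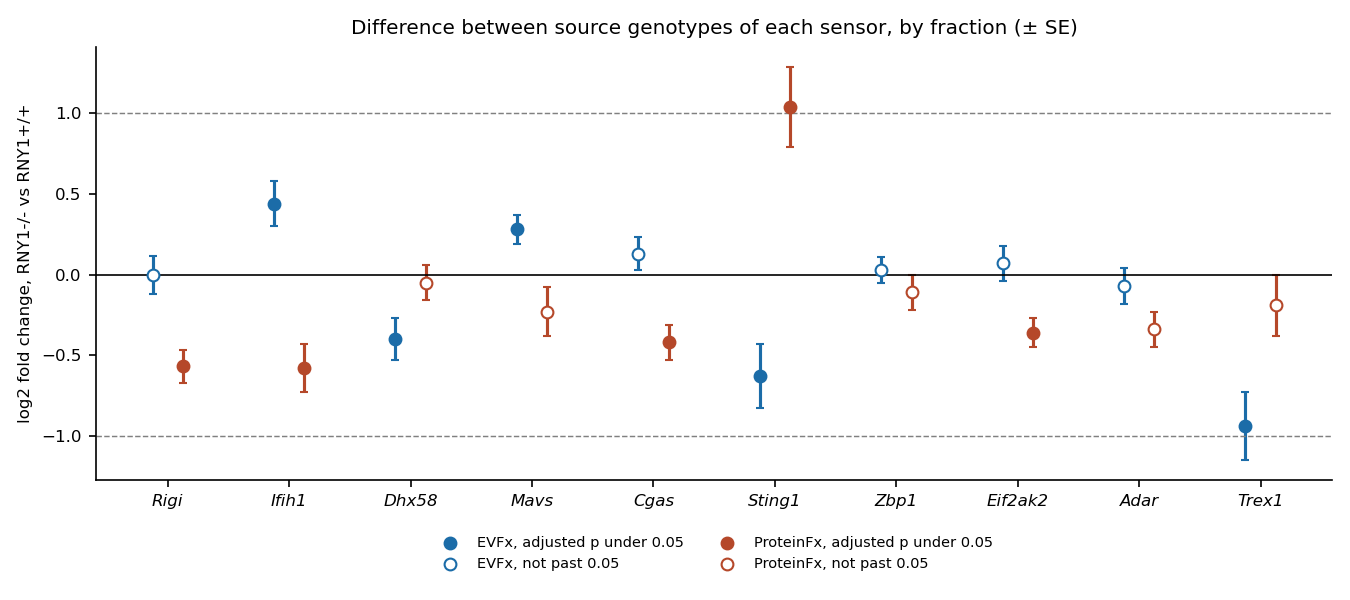
Log2 difference between RNY1-/- and RNY1+/+ fluid for each sensor gene, in EVFx and in ProteinFx, with bars of 1 SE and filled points where the adjusted p was under 0.05. Ifih1 lies at 0.44 in EVFx and -0.58 in ProteinFx, and Sting1 at -0.63 in EVFx and 1.04 in ProteinFx.

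Whether the genotype difference itself differed between the fractions was tested as an interaction over the 16 treated libraries, in which a negative coefficient means a more negative RNY1-/- minus RNY1+/+ difference in ProteinFx than in EVFx. Ifih1 and Sting1 were called, 2 of 10 beside 7.79% of all genes, and 6 members passed the adjusted p alone, beside 33% of all genes. The median coefficient of the members was -0.36 and that of all genes was -0.00. For Ifih1 the coefficient was -1.03 (SE 0.22, adjusted p = 0.00457). Its adjusted p stayed at 0.0135 or less with any 1 library left out, and its size fell under the fold limit in 6 of those 16 fits, without RNY1+/+ EVFx replicate 3 or 4, RNY1-/- EVFx replicate 1 or 4, or RNY1-/- ProteinFx replicate 1 or 2 (lowest size -0.92). For Sting1 the coefficient was 1.67 (SE 0.35, adjusted p = 0.00438), between 1.49 and 1.83 with 1 library left out and 1.22 (adjusted p = 0.0595) with RNY1-/- ProteinFx replicates 3 and 4 alone, where Ifih1 was at -0.74 (adjusted p = 0.043).

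Rigi (-0.57, SE 0.16, adjusted p = 0.0145), Cgas (-0.55, SE 0.15, adjusted p = 0.0134), Mavs (-0.51, SE 0.16, adjusted p = 0.0257) and Eif2ak2 (-0.44, SE 0.14, adjusted p = 0.0245) passed the adjusted p with coefficients of like size. Rigi and Cgas held it with any 1 library left out. Mavs lost it without RNY1-/- EVFx replicate 1, RNY1+/+ ProteinFx replicate 2 or 4, or RNY1-/- ProteinFx replicate 2 (up to 0.0702), and Eif2ak2 lost it without RNY1+/+ EVFx replicate 4 or RNY1-/- EVFx replicate 1 (up to 0.0574). Total count scaling, which moved the median of all genes by 0.16, took Rigi to -0.41 (adjusted p = 0.0675), Mavs to -0.34 (0.127) and Eif2ak2 to -0.28 (0.14). RNY1-/- ProteinFx replicates 3 and 4 alone gave adjusted p of 0.0515 (Rigi), 0.13 (Cgas), 0.0806 (Mavs) and 0.104 (Eif2ak2). With replicates 1 and 2 alone all of them were under 0.05. Length and GC removal took Eif2ak2 to -0.17 (adjusted p = 0.417) and brought Adar to -0.51 (adjusted p = 0.0156). With all libraries and the trends kept, Trex1 stood at 0.76 (SE 0.31, adjusted p = 0.0631) and Dhx58 at 0.35 (SE 0.17, adjusted p = 0.124). Adar was then at -0.27 (SE 0.15, adjusted p = 0.166) and Zbp1 at -0.14 (SE 0.13, adjusted p = 0.409).

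ProteinFx was also set directly against EVFx of the same genotype, although the doses were given in different units. With RNY1+/+ fluid 0 of 10 members were called by edgeR beside 13.5% of all genes, and 0 by DESeq2. An unadjusted p under 0.05 was reached by 6, again with the share of all genes not counted. By the adjusted p alone 5 were higher beside 31.1% and 1 was lower beside 32.2%. Ifih1 was higher by 0.92 (SE 0.11, adjusted p = 4.1e-06), Sting1 by 0.73 (SE 0.21, adjusted p = 0.00826) and Eif2ak2 by 0.51 (SE 0.10, adjusted p = 3.2e-04), and Trex1 was at -0.81 (SE 0.18, adjusted p = 0.00136). Rigi at 0.28 (SE 0.10, adjusted p = 0.0254) and Adar at 0.25 (SE 0.10, adjusted p = 0.0438) were closer to the threshold. Rigi crossed it without RNY1+/+ EVFx replicate 3 or 4 or RNY1+/+ ProteinFx replicate 1 or 4 (up to 0.0743), and Adar stayed under it only without RNY1+/+ EVFx replicate 4 or RNY1+/+ ProteinFx replicate 3 (up to 0.124 otherwise). With length and GC trends removed, Trex1 was at -0.27 (adjusted p = 0.126) and Rigi at 0.16 (adjusted p = 0.174), neither past the threshold. Dhx58 at 0.49 (adjusted p = 1.0e-04) and Zbp1 at 0.29 (adjusted p = 0.00935) then passed it, as did Ifih1, Sting1, Eif2ak2 and Adar.

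With RNY1-/- fluid 1 member, Sting1, was called beside 8.97% of all genes, at 2.38 (SE 0.25, adjusted p = 1.9e-05), with 10.4 to 24.1 CPM after ProteinFx and 2.22 to 3.94 CPM after EVFx. By the adjusted p alone 2 members were higher beside 14.6% of all genes and 2 were lower beside 14.6%. Dhx58 was the other higher one, at 0.46 (SE 0.14, adjusted p = 0.0279, over 0.05 without RNY1-/- EVFx replicate 3 or 4 or RNY1-/- ProteinFx replicate 1 or 2, up to 0.0876). Mavs at -0.70 (SE 0.14, adjusted p = 0.00209) and Cgas at -0.57 (SE 0.12, adjusted p = 0.00284) were lower and held with any 1 library left out. Rigi was at -0.31 (SE 0.12, adjusted p = 0.0742), at -0.32 (adjusted p = 0.0405) with length and GC trends removed, and at -0.30 (adjusted p = 0.0255) with replicate numbers as a block. Ifih1 was at -0.12 (SE 0.18, adjusted p = 0.672).

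The wider pathway was read from 6 lists of 67 genes in all, to be set beside the percentages of all genes called against PBS given above and an all-gene median log2 fold change of -0.03. The shares of all genes called lower were 8.19% after RNY1+/+ EVFx, 13.5% after RNY1-/- EVFx, 12.4% after RNY1+/+ ProteinFx and 7.99% after RNY1-/- ProteinFx. Among 9 partners and regulators of the RNA sensors, Ddx60, a helicase linked to RIG-I signalling, rose over PBS by a log2 fold change of 1.81 after RNY1+/+ EVFx, 2.47 after RNY1-/- EVFx, 3.04 after RNY1+/+ ProteinFx and 2.63 after RNY1-/- ProteinFx. Zc3hav1, the zinc-finger antiviral protein that binds CpG-rich RNA, rose by 1.05, 1.42 and 1.07 in the first 3, and its RNY1+/+ EVFx value was 0.98 without PBS replicate 2. These made 2 of 8 tested genes called higher after RNY1+/+ EVFx, 2 of 7 after RNY1-/- EVFx, 2 of 8 after RNY1+/+ ProteinFx and 1 of 8 after RNY1-/- ProteinFx, with none lower and list medians of 0.48, 0.47, 0.49 and 0.37.

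Signalling adaptors and kinases had 5 of 15, 4 of 15, 5 of 15 and 3 of 14 tested genes called higher in the same order and none lower, with medians of 0.77, 0.64, 0.16 and 0.24. Irf7, the transcription factor that amplifies type I interferon, rose most of the list in each, by 2.36 (SE 0.26), 2.01 (SE 0.28), 2.49 (SE 0.24) and 2.18 (SE 0.27), from 71.8 ± 27.4 CPM in PBS to 360 ± 7.49 CPM after RNY1+/+ ProteinFx. Tank and Azi2, scaffolds of the kinase TBK1, were called in all 4, Tank between 1.14 and 1.94 and Azi2 between 1.16 and 1.70. Traf2 was called after RNY1+/+ EVFx (1.73) and was lower by -1.10 after RNY1-/- than RNY1+/+ EVFx.

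The 6 type I and III interferon genes on the list were almost silent at harvest. Other interferon genes were not read, and counts at harvest tell nothing of earlier levels. Ifna1, Ifna2, Ifna4, Ifnl2 and Ifnl3 had 0 counts in all 20 libraries, which allows up to 0.0267 CPM over the 112397733 counts together, by counting error only. Ifnb1 had 0 counts in PBS, 5 and 11 summed counts over the 4 libraries of RNY1+/+ and RNY1-/- EVFx, and 10 and 6 over those of RNY1+/+ and RNY1-/- ProteinFx. Only 1 library, with 5 counts, exceeded 3, so no interferon gene of the list entered a test.

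Nucleases and inhibitors that limit sensing, apart from Trex1, moved in both directions, with 1 called higher and 1 lower of 11 after RNY1+/+ EVFx, 2 and 4 after RNY1-/- EVFx, 2 and 4 after RNY1+/+ ProteinFx, and 2 and 2 after RNY1-/- ProteinFx, and with medians of -0.41, -0.89, -0.42 and 0.15. Pld3, a lysosomal exonuclease, was lower by log2 values of -1.20, -2.17, -2.41 and -1.90. The first of these lost its adjusted p (0.0531 to 0.0642) without PBS replicate 1 or 2 or RNY1+/+ EVFx replicate 1, 2 or 3. Samhd1, which depletes nucleotide pools, rose by 1.54 and 1.36 after RNY1+/+ and RNY1-/- ProteinFx, and Pnpt1, a mitochondrial RNA exonuclease, rose by 1.21, 1.51 and 1.24 after RNY1-/- EVFx, RNY1+/+ ProteinFx and RNY1-/- ProteinFx. Banf1, which binds DNA in competition with cGAS, was lower in those same 3 groups by -1.47, -1.45 and -1.19.

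Among 10 genes for cGAMP and STING handling, few were called, 1 higher after each fraction and 1 lower after each fraction other than RNY1+/+ EVFx, with medians of -0.21, 0.05, -0.14 and -0.08. Abcc1, an exporter that can carry cGAMP out of the cell, was higher by 1.94 and 1.71 after RNY1+/+ and RNY1-/- EVFx, read -0.89 after RNY1+/+ ProteinFx, short of the fold limit, and was lower by -1.02 after RNY1-/- ProteinFx. That last value was -0.98, -0.95 and -0.99 without PBS replicate 4, RNY1-/- ProteinFx replicate 3 or RNY1-/- ProteinFx replicate 4. Tested directly, Abcc1 was lower after ProteinFx than EVFx by -2.82 (SE 0.14) for RNY1+/+ and -2.73 (SE 0.13) for RNY1-/- fluid. Stim1, a calcium sensor that holds STING in the endoplasmic reticulum, was lower after RNY1-/- EVFx (-1.32) and RNY1+/+ ProteinFx (-1.25).

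On the list for ZBP1 and PKR, 4, 5, 3 and 3 of 11 genes were called higher and none lower, with medians of 0.43, 0.47, 0.44 and 0.37. The list also holds Eif2ak1, Eif2ak3 and Eif2ak4, the genes of the other eIF2α kinases, so not all of it lies downstream of ZBP1 or PKR. Activity of these kinases was not tested. Mlkl, which executes necroptosis, rose by 2.33, 1.92, 1.89 and 1.40, and Atf4, the transcription factor translated when eIF2α is phosphorylated, rose by 2.21, 2.00, 2.09 and 1.79. Ppp1r15a, a phosphatase subunit that reverses that phosphorylation, rose by 2.27 and 1.64 after RNY1+/+ and RNY1-/- EVFx and was at 0.09 and -0.45 after RNY1+/+ and RNY1-/- ProteinFx. Its direct difference, ProteinFx minus EVFx, was -2.17 (SE 0.15) and -2.08 (SE 0.17). Ripk3, the kinase between ZBP1 and MLKL and named here after its values were seen, was at 0.03, -0.23, 0.74 and 0.67, none past the adjusted p.

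**Figure D4:**
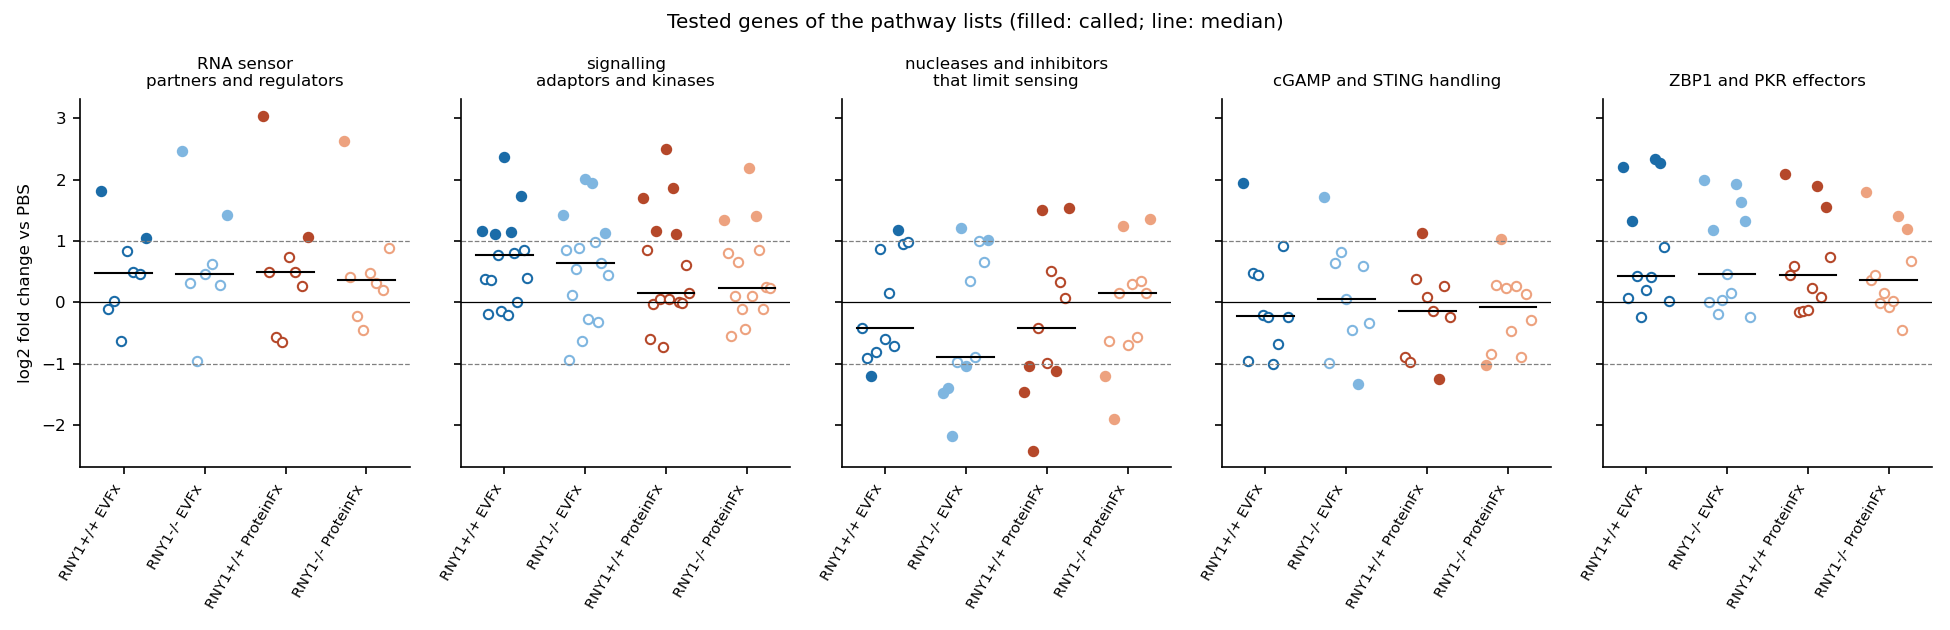
Log2 fold change over PBS of each tested gene of the pathway lists, by list and fraction, with filled points for called genes and a line at the list median. The filled points of the signalling list and of the ZBP1 and PKR list all lie above 0, and the nuclease list has filled points on both sides.

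By source genotype the lists differed little in calls. In EVFx 2 of 52 tested genes were called, beside 2.35% of all genes, Traf2 and Banf1 (-1.06), both lower with RNY1-/- fluid, and the call of Banf1 was lost without RNY1+/+ EVFx replicate 4. In ProteinFx 0 of 52 tested were called by edgeR, beside 1.82% of all genes, and 0 by DESeq2. An unadjusted p under 0.05 was reached by 13 in ProteinFx and by 34 in EVFx, and the share of all genes at that limit was not counted. By the adjusted p, a stricter limit, 25.5% of all genes were higher and 26.6% lower in EVFx, and 2.2% and 3.37% in ProteinFx. The unadjusted counts are therefore not read as a result about the lists. The interaction was called for 6 of 53 tested, beside 7.79% of all genes, namely Ddx60 (-1.05), Tank (-1.26), Traf2 (1.03), Pld3 (1.51), Banf1 (1.35) and Stim1 (1.06). Without RNY1-/- ProteinFx replicate 2 the calls of Ddx60 (-0.93), Traf2 (0.69) and Stim1 (0.91) were lost, and those of Ddx60 (-0.90) and Stim1 (0.98) also without RNY1-/- ProteinFx replicate 1. Leaving out RNY1+/+ EVFx replicate 4 lost the same 3 calls, at -0.96, 0.97 and 0.96. Ddx60 further lost its call without RNY1+/+ EVFx replicate 3 (-0.98) or RNY1+/+ ProteinFx replicate 2 (-0.96), and Stim1 without RNY1+/+ EVFx replicate 1 (0.96) or RNY1+/+ ProteinFx replicate 4 (0.96). Traf2 lost its call without RNY1+/+ EVFx replicate 1 (0.99) or 2 (1.00), RNY1-/- EVFx replicate 1 (0.94) or RNY1+/+ ProteinFx replicate 1 (0.96).

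The genes whose log2 CPM followed each sensor most closely over the 20 libraries were listed as a description, since the libraries share treatments. Rigi was most like Gbp2, a guanylate-binding protein (Pearson r = 0.996), Ifit3 (0.993) and Clec4a1 (0.991), and Ifih1 was most like Trim30d (0.995), Trim30a (0.994) and Ifi205 (0.994). Dhx58 was most like Psmb10, an immunoproteasome subunit (0.990), Oas3 (0.990) and Irf7 (0.986). Zbp1 was nearest to Gm43302 (0.988), Gbp6 (0.986) and Gbp2 (0.986), Eif2ak2 to A330040F15Rik (0.992), Ifi208 (0.990) and Ms4a4c (0.988), and Adar to Tor3a (0.976), Pnp (0.972) and Usp18 (0.971). For the other 4 members, Cgas had Gpbp1 (0.972), Sqle (0.971) and M6pr (0.968), and Trex1 had Atrip, with which it shares exon sequence (0.978), Ube2l6 (0.970) and Usb1 (0.970). Mavs had Naip2 (0.899), Dcun1d3 (0.898) and Cyria (0.879), and Sting1 had Mgat1 (0.926), Ski (0.909) and Gpx1 (0.899).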

How the data were processed

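RNA of 20 BMDM libraries was read by 3′-end, oligo(dT)-primed sequencing with molecular identifiers. Per the labels, the authors and their service provider used FastQC 0.12.1, fastp 0.24.0, STAR 2.7.11 on GRCm39, SAMtools 1.22.1, UMIcollapse and strand-specific featureCounts (Subread 2.1.1) over exons and 3′ UTRs, with fractional counting of multimapping reads. The authors deposited a table of expected counts, not normalized and in part fractional. They also deposited CPM, each count over its library's total. No column holds the values of a comparison.

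Counts were rounded and tested with edgeR 4.0.16 (R 4.3.3, limma 3.58.1) by the quasi-likelihood test with TMM factors, over genes that passed filterByExpr and a mean of 3 CPM, on the 8 libraries of each comparison and on 16 for the interaction, with Benjamini-Hochberg adjustment over all genes tested. The SE was taken as the absolute log2 fold change divided by the root of the F statistic. The method was tested on simulated data. DESeq2 1.42.0, other scalings and filters, a fit of all 20 libraries, replicate numbers as a block, length and GC offsets (natural splines, 4 degrees of freedom, GENCODE M21), and each library left out were the alternatives. Deviations of same-numbered libraries correlated above 0.1 in all 4 pairs of RNY1-/- EVFx with PBS (0.13 to 0.38) and of RNY1-/- ProteinFx with RNY1-/- EVFx (0.22 to 0.40), so blocked values stand beside the results they change there. This was decided with the blocked values already known. Tables and figures used python 3.11.15, pandas 2.3.3, numpy 2.4.6 and matplotlib 3.10.9. Named were all members, the deleted gene, up to 4 called genes per list and comparison by size of change, and the 3 genes most correlated with each member in log2 CPM (prior count 2) among genes at a mean of 10 CPM or more. The members and lists were chosen with earlier results of these data known. Depth limits precision most for Sting1 and Trex1. Per-library counts and floors cover counting error only.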

Additional observations from a re-analysis of the deposited data

Results flagged for a closer look

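For 6 sensors the RNY1-/- minus RNY1+/+ difference was not the same in ProteinFx as in EVFx, by the interaction term of the edgeR fit over 16 libraries at an adjusted p under 0.05, which 33% of all genes also passed. The coefficients were -0.57 for Rigi, -1.03 for Ifih1, -0.51 for Mavs, -0.55 for Cgas, 1.67 for Sting1 and -0.44 for Eif2ak2. Total count scaling took Rigi, Mavs and Eif2ak2 to adjusted p of 0.0675, 0.127 and 0.14, and Dhx58 and Trex1 to 0.0463 and 0.0351. Length and GC removal took Eif2ak2 to 0.417 and Adar to 0.0156. With RNY1-/- ProteinFx replicates 3 and 4 alone, Ifih1 was the only one of the 6 to stay under 0.05 (0.043). Within ProteinFx, RNY1-/- replicates 1 and 2 stood apart from replicates 3 and 4, at means of 198 and 281 CPM for Ifih1 and 23.6 and 13 CPM for Sting1, and the part of that split in these coefficients was not tested beyond the fits on each pair.

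In 2 of the 50 sets of 4 libraries, 1 per gene and group, the lowest library lay far from the other 3 by Dixon's criterion, which chance exceeds in about 1 of 20 sets. Ifih1 after RNY1+/+ ProteinFx had its lowest library, replicate 3, at 320 CPM against 344 to 349 CPM in the others. Zbp1 after RNY1-/- EVFx had its lowest library, replicate 3, at 187 CPM against 220 to 223 CPM.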

How the results depend on the processing

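The number of sensors called against PBS kept within 1.5 times under each alternative, at 7 to 8, 7 to 8, 7 to 8 and 5 to 6 with 1 library left out (RNY1+/+ and RNY1-/- EVFx, RNY1+/+ and RNY1-/- ProteinFx). For the EVFx genotype comparison total count scaling called 1 and the adjusted p alone 5, with 0 to 1 when a library was left out. For the ProteinFx genotype comparison 0 were called with length and GC trends removed or with RNY1-/- ProteinFx replicates 3 and 4 only, a split chosen after seeing the data, and 5 by the adjusted p alone, with 0 to 1 when a library was left out. The adjusted p alone called 6 and 4 for ProteinFx against EVFx with RNY1+/+ and RNY1-/- fluid. For the interaction 1 was called under total count scaling, with no filter and with length and GC trends removed, 0 with replicates 3 and 4 only, 6 by the adjusted p alone, and 1 to 2 when a library was left out.

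Outside the 2 comparisons named in the methods, same-numbered libraries share only a number. Over all groups the correlation of their deviations ran from -0.39 to 0.64 over 40 pairs, was over 0.1 in 21, and the best match had the same number in 16. The replicate block took the ProteinFx genotype count from 1 to 0 and the adjusted p there to 0.0758 for Sting1, 0.0605 for Ifih1, 0.103 for Eif2ak2 and 0.124 for Cgas. Against PBS it took Mavs after RNY1+/+ ProteinFx to 0.0927 and Trex1 after RNY1-/- ProteinFx to 0.014. Beside these and the blocked values given above for Trex1 and Rigi, it moved no sensor across the adjusted p.

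Reversed in direction, all small and not past the threshold, were these. Total count scaling gave -0.10 for Sting1 (RNY1+/+ ProteinFx against PBS), -0.04 for Zbp1 (EVFx genotype), 0.04 for Dhx58 (ProteinFx genotype), 0.02 for Zbp1 (interaction), and 0.05, 0.16, 0.13 and 0.12 for Ifih1, Zbp1, Adar and Trex1 (RNY1-/- ProteinFx against EVFx). DESeq2 gave 0.0014 for Rigi (EVFx genotype) and 0.0037 for Cgas (RNY1+/+ ProteinFx against EVFx). Scaling to Rab14, Arpc2 and Cltc gave 0.02 for Rigi (EVFx genotype) and -0.03 for Eif2ak2 (RNY1-/- ProteinFx against EVFx), and no filter gave -0.01 for Zbp1 (EVFx genotype). Length and GC removal gave -0.14 for Eif2ak2 and 0.16 for Adar (EVFx genotype), 0.18 for Mavs (RNY1+/+ ProteinFx against EVFx) and -0.03 for Dhx58 (interaction). Replicates 1 and 2 only gave 0.08 for Dhx58 (ProteinFx genotype) and 0.05 for Zbp1 and 0.11 for Trex1 (RNY1-/- ProteinFx against EVFx), and replicates 3 and 4 only gave 0.16 for Ifih1 there. With 1 library left out, Sting1 ran from -0.09 to 0.24 (RNY1+/+ ProteinFx against PBS), Rigi from -0.11 to 0.07, Zbp1 from -0.02 to 0.08 and Eif2ak2 from -0.01 to 0.14 (EVFx genotype), Cgas from -0.09 to 0.03 (RNY1+/+ ProteinFx against EVFx), and Zbp1 from -0.07 to 0.04, Adar from -0.09 to 0.05 and Trex1 from -0.25 to 0.12 (RNY1-/- ProteinFx against EVFx). The cause was not tested.

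Over all genes, total count scaling moved the percent of calls that were higher from 50.2 to 37.6, 40 to 24.6 and 42 to 29.5 against PBS for RNY1+/+ EVFx, RNY1-/- EVFx and RNY1+/+ ProteinFx, from 36.1 to 50.5 for the ProteinFx genotype, from 53.7 to 68.8 for RNY1-/- ProteinFx against EVFx and from 68.4 to 87.9 for the interaction, and scaling to the 3 genes moved it from 49.6 to 37.9 for RNY1+/+ ProteinFx against EVFx. Length and GC removal moved it from 16 to 63.4 for the EVFx genotype, where calls fell from 243 to 93, from 44.1 to 57.7 for RNY1-/- ProteinFx against PBS, and from 68.4 to 46.4 for the interaction, where calls went from 814 to 420. With no filter, calls rose from 1774 to 3009, 2416 to 3798, 2311 to 3498, 243 to 631, 191 to 324, 1413 to 2563, 934 to 1539 and 814 to 1401, and with filterByExpr alone from 243 to 367. RNY1-/- ProteinFx replicates 1 and 2 only gave 918 against 1552 (PBS), 405 against 191 (genotype) and 1903 against 814 (interaction), and replicates 3 and 4 only gave 101 for the last. Leaving out RNY1+/+ EVFx replicate 4 gave 99 against 243, RNY1+/+ ProteinFx replicate 4 gave 116 against 191, and RNY1-/- ProteinFx replicate 1 or 2 gave 536 or 484 against 814.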
